A study of Mus musculus with 16 samples.

Results

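Follicular B cells from mice in which Rock2 was deleted with CD23-Cre were compared with follicular B cells from mice that carried the floxed alleles alone, by RNA-seq. The comparison rests on 6 of the 16 samples of the series, which are the 3 cKO and the 3 WT libraries of follicular B cells (FoB). They are part of 12 RNA-seq libraries, and the other 6 are cKO and WT germinal center B cells (GCB). All 12 were fitted together, so the GCB libraries also share in the low-count filter, the scaling and the spread behind the FoB tests. Values of GCB are given where both populations are set side by side. The cKO mice are given as Rock2flox/flox CD23-Cre. The controls are labelled WT but are given as Rock2 flox/flox with no Cre listed, so both genotypes carried the floxed alleles. All were C57BL/6 mice of 10 weeks, and cells were sorted by flow cytometry from the spleen 7 days after immunization with 100 µg of NP-CGG, a hapten coupled to a carrier protein, in alum. A transgene drives Cre from the promoter of CD23, which mature B cells express. Cre was listed for every cKO library and for no WT library, so the presence of the transgene and the loss of Rock2 cannot be told apart. The markers used for sorting, and whether a library came from 1 mouse or several, are not given in the labels, and p-values therefore measure the spread between these samples, which may be technical.

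Follicular B cells are the main recirculating mature B cells of the spleen. They rest in the follicle until antigen and T cell help draw some of them into germinal centers, where B cells divide, mutate their antibody genes and switch antibody class. Rock2 encodes a serine/threonine kinase that is activated by the small GTPase RhoA and acts on myosin light chain, its phosphatase and LIM kinase to set actomyosin contraction, and Rock1 encodes its close relative. The question here is what loss of Rock2 changed in the B cells labelled as follicular.

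Total counts ran from 23349512 to 26967943 over the 12 libraries, and 13708 of 25640 genes passed the filter on low counts. The FoB libraries held the follicular program. Fcer2a, which encodes CD23, measured 1363, 1903 and 1408 CPM (read counts scaled to library size by TMM) in cKO libraries 1, 2 and 3, against 1281, 1827 and 1364 CPM in WT libraries 1, 2 and 3. The summed level of 18 follicular identity genes was 11580, 16292 and 10705 CPM in cKO FoB and 11583, 15139 and 10878 CPM in WT FoB, against at most 3242 CPM in any GCB library. Libraries with the same number resembled each other. Deviations from the group mean correlated at 0.602 to 0.753 across genes for the 3 same-numbered FoB pairs and at -0.654 to 0.0236 for the other 6 pairs. Deviations within a group sum to 0, so pairs of unlike number are pulled below 0 when same-numbered pairs lie above it. The number was used as a block, as planned for this comparison. Every comparison below sets a cKO library beside the WT library of its number. Number 2 stood apart with the highest mitochondrial share of counts (3.97% in cKO and 3.73% in WT, against 1.68% to 2.95% in the other FoB libraries) and the lowest level of Xist, the RNA of the inactive X chromosome (42.0 CPM in cKO and 42.4 CPM in WT, against 188 to 470 CPM in the others). Of the Y-linked genes, Uty had 0 reads in all 6 FoB libraries, and Kdm5d had 1 read in WT library 1 and 0 in the others. What set number 2 apart was not tested. WT library 1 also stood apart. Its 24 G2/M genes summed to 1044 CPM against 355 to 705 CPM in the other 5 FoB libraries, and its germinal center transcripts were higher too, as given below.

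No gene passed the test between cKO and WT FoB. edgeR's quasi-likelihood test with Benjamini-Hochberg adjustment called 0 of 13708 genes (0%), with a lowest adjusted p of 0.0737, which belonged to Trappc5 and Gm12666. At an unadjusted p under 0.05 there were 299 genes (2.18%), of which 124 were higher in cKO (0.905%) and 175 were lower (1.28%). The count and its split moved with single libraries. Without WT library 2 the count was 718 (352 higher and 366 lower), without WT library 1 it was 300 (180 higher and 120 lower), and without number 2 it was 839 (521 higher and 318 lower). DESeq2 with the same design called 7 genes, with Trappc5, Gm12666 and Cpt1a higher in cKO and Rgs2, Parm1, Ighg1 and Ighv1-72 lower, and the fit without the number as a block called 0 with 95 at an unadjusted p under 0.05. Without a filter on low counts edgeR called 57 genes, in a fit that gave every gene the spread of the shared trend. With the block but only the 6 FoB libraries, edgeR called 0, with 427 genes at an unadjusted p under 0.05. The lowest adjusted p of that edgeR fit was 0.051, for Rgs2. The authors' deposited table likewise held 0 of 10518 genes under a false discovery rate of 0.05, with 79 at an unadjusted p under 0.05. The differences were small. Among 9410 genes whose mean reached 5 CPM in either FoB group, the median size of the log2 fold change was 0.056 with a median standard error of 0.11, against a median size of 0.11 for the same genes in GCB, so the typical difference in FoB was smaller than its error. Below, a gene is called higher or lower in cKO only as a description of its values, since none passed the test.

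Rock2 itself was lower in cKO FoB. It measured 123, 87.4 and 96.5 CPM in cKO libraries 1, 2 and 3, against 151, 129 and 132 CPM in the WT libraries. Every cKO library lay below every WT library. The means were 102 ± 18.4 CPM in cKO and 137 ± 12.2 CPM in WT (SD, n = 3 each), and the log2 fold change was -0.43 ± 0.12 (standard error, 95% interval -0.68 to -0.18), with an adjusted p of 1 and an unadjusted p of 0.0026. In GCB the log2 fold change was -0.53 (adjusted p = 0.033), and the difference between the populations was 0.10 ± 0.16 (adjusted p = 0.996). The count covers the whole gene, and which exons the floxed alleles remove is not given in the labels, so transcript left from the undeleted part counts towards the cKO value. In these sorted samples, fewer cells with an intact gene and less RNA per cell cannot be told apart. Rock1 gave 176, 183 and 129 CPM in cKO and 194, 180 and 155 CPM in WT, with overlapping groups and a log2 fold change of -0.13 ± 0.10 (95% interval -0.34 to 0.08). The authors' annotation tags both genes as hosts of a noncoding RNA, and strand use in counting is not given, so a part of their reads may belong to that RNA.

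The list of ROCK pathway members, Rock2 included, had a median close to 0. Of 32 genes for small GTPases, the kinases, myosins, myosin phosphatase, LIM kinases, cofilins and membrane linkers, 30 were tested and 22 lay below 0, against 50.4% of all genes, with a median log2 fold change of -0.03 against -0.0012 over all genes. Rhob, a small GTPase related to RhoA and itself an inducible gene, joined Rock2 as the 2 members at an unadjusted p under 0.05. It measured 54.0, 46.8 and 54.5 CPM in cKO and 80.3, 91.9 and 60.5 CPM in WT. Its groups did not overlap, as for 1.15% of all genes in this direction, and the log2 fold change was -0.59 ± 0.26 (95% interval -1.15 to -0.03), or -0.20 without WT library 2. Rhoa itself gave -0.06, the myosin heavy chain Myh9 -0.12 and the LIM kinase Limk2 -0.10. Among 23 tested targets of SRF, the actin-sensitive transcription factor, 17 lay below 0 with a median of -0.04, and Egr1 was the 1 member at an unadjusted p under 0.05.

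**Figure D1:**
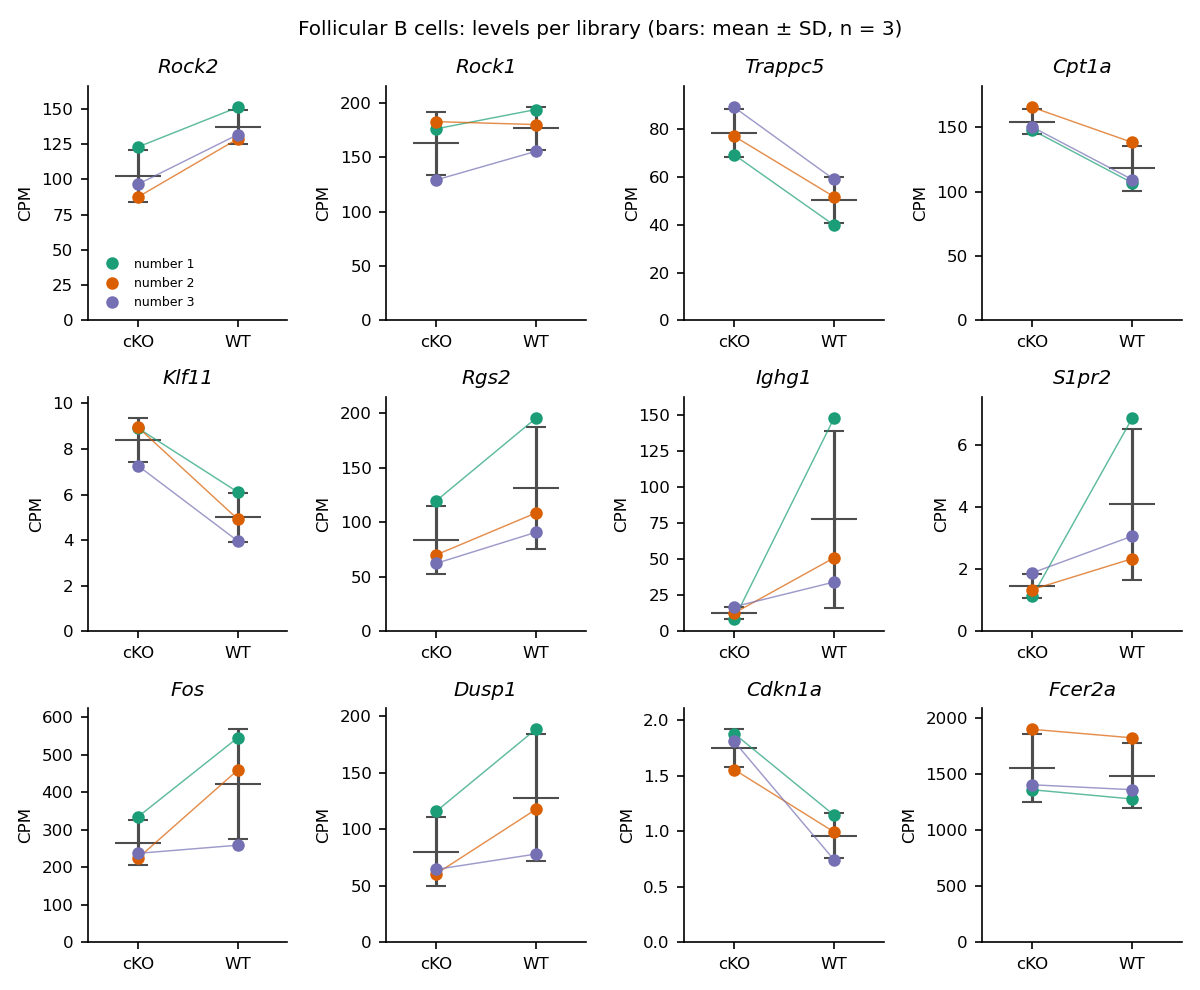
Levels of 12 genes in the 6 follicular B cell libraries. Points are TMM-scaled CPM, cKO at the left and WT at the right of each panel, with lines joining libraries of the same number and bars giving the mean ± SD of 3 libraries. Rock2 and Ighg1 lie lower in every cKO library than in any WT library, Trappc5, Cpt1a and Klf11 lie higher, and the wide WT bars of Ighg1 and S1pr2 follow WT library 1.

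Among genes with higher values in cKO, Trappc5 had the smallest p. It encodes a subunit of the TRAPP complexes, which tether vesicles in the secretory pathway. It measured 69.3, 77.0 and 89.1 CPM in cKO and 39.9, 51.7 and 59.0 CPM in WT. All cKO libraries lay above all WT libraries, as for 1.05% of all genes. The log2 fold change was 0.65 ± 0.09 (95% interval 0.45 to 0.85, edgeR adjusted p = 0.0737), it lay between 0.57 and 0.73 over 19 alternative settings, and 3 of these put it past the test. Trappc5 (8:3676477-3680921, GRCm38.p6) overlaps Fcer2a by 642 bases, and Fcer2a is the gene whose promoter drives Cre in the cKO mice. Fcer2a itself had a log2 fold change of 0.06 ± 0.14, and the 14 tested genes other than Trappc5 within 300 kb, Fcer2a included, lay between -0.28 and 0.86, with 6 below 0 and 0 at an unadjusted p under 0.05. Whether the Cre transgene contributes reads to Trappc5 was not tested.

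The other higher genes by the same rule had smaller differences. Cpt1a, which encodes the enzyme that commits long-chain fatty acids to import into mitochondria, measured 148, 165 and 150 CPM in cKO and 107, 138 and 109 CPM in WT. Its groups did not overlap, and the log2 fold change was 0.39 ± 0.08 (edgeR adjusted p = 0.456, DESeq2 adjusted p = 0.00695). Klf11, a Krüppel-like transcription factor, measured 8.92, 8.96 and 7.27 CPM in cKO and 6.11, 4.93 and 3.97 CPM in WT, with no overlap and a log2 fold change of 0.75 ± 0.16. Bcl10, the adaptor that links antigen receptors to NF-kB, measured 122, 169 and 122 CPM in cKO and 102, 127 and 107 CPM in WT, groups that overlap although each cKO library lay above its WT partner (0.29 ± 0.08). The remaining 6 were Zfp207 (0.28), Gm4610 (0.35), the receptor tyrosine kinase gene Ltk (0.45), the leukemia inhibitory factor receptor gene Lifr (0.30), St7 (0.34) and Tmppe (0.38). Each of the 10 was higher in cKO in all 3 numbers because the rule required it, as were 10.5% of all genes, and the authors tag the loci of St7 and Tmppe as overlapping another gene. Lifr was also higher in cKO GCB (0.65, adjusted p = 0.00943).

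Gm12666, which shared the lowest adjusted p, was singled out after its values were seen. Its counts were 14, 11 and 29 reads in cKO FoB and 0, 0 and 0 in WT FoB, at least 17-fold higher against a floor of 3 counts over the WT group. It was the 1 gene of the table with at least 20 reads in all over one FoB group and 0 in the other. GCB gave the same picture, with 36, 45 and 100 reads in cKO and 0, 1 and 0 in WT. Gm4815, also picked after its values were seen, had 19, 19 and 32 reads in cKO FoB and 2, 5 and 4 in WT FoB, a ratio of 6.0 (95% interval 3.16 to 12.6 from counting error only), but 1, 0 and 1 reads in cKO GCB and 1, 0 and 0 in WT GCB.

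Among genes with lower values in cKO and a mean of at least 5 CPM, Rgs2 had the smallest p. It speeds the shut-off of G protein alpha subunits below receptors, and it measured 119, 70.0 and 62.2 CPM in cKO and 195, 108 and 90.7 CPM in WT. The groups overlap, because number 1 was the highest in both genotypes, but within each number cKO was the lower library. Its log2 fold change was -0.63 ± 0.11 (95% interval -0.87 to -0.39, edgeR adjusted p = 0.169), and it lay between -0.69 and -0.59 over 19 alternative settings. In GCB, Rgs2 had a log2 fold change of -0.58 and passed the test there (adjusted p = 0.0139), with a difference between populations of -0.05 ± 0.15 (adjusted p = 0.998). Rgs1, a relative that dampens chemokine receptor signaling in B cells, measured 6.39, 2.19 and 1.66 CPM in cKO and 15.1, 5.71 and 3.64 CPM in WT, again overlapping between groups and lower in cKO in each number (-1.31 ± 0.36).

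Other lower genes came from several pathways. Igf2bp3, an RNA-binding protein gene, measured 5.64, 5.17 and 5.06 CPM in cKO and 8.62, 9.17 and 6.70 CPM in WT, without overlap. Its log2 fold change was -0.61 ± 0.14 in FoB and -0.58 in GCB (adjusted p = 0.771 and 0.0336), and the authors tag its locus as overlapping another gene. The mitochondrial ATPase gene Atad3a gave -0.39 ± 0.11, the endoplasmic reticulum disulfide isomerase gene Pdia6 -0.27 ± 0.08 and 9430015G10Rik -0.43 ± 0.11. Pdia6 was also the 1 of 6 tested neighbours of Rock2 within 300 kb at an unadjusted p under 0.05. Fas, the death receptor gene, measured 5.43, 7.44 and 4.77 CPM in cKO and 9.76, 8.65 and 5.95 CPM in WT (-0.47 ± 0.14, or -0.30 without WT library 1). The rule required each of these 5 genes to be lower in cKO in all 3 numbers, as were 10.9% of all genes, and Fas is tagged as the host of a noncoding RNA.

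Transcripts of class-switched antibody were lower in cKO FoB. Ighg1, the IgG1 heavy chain constant gene, measured 8.54, 12.7 and 17.1 CPM in cKO and 148, 51.0 and 34.2 CPM in WT. Every cKO library lay below every WT library, and WT library 1 lay far above the other 2 WT libraries. The log2 fold change was -2.52 ± 0.44 (95% interval -3.46 to -1.57, edgeR adjusted p = 0.169), and it ranged from -3.21 to -1.50 over 19 alternative settings, with -1.61 and an adjusted p of 0.0144 without WT library 1. Ighg2b measured 12.1, 23.8 and 19.2 CPM in cKO and 82.0, 38.7 and 34.3 CPM in WT, also without overlap (-1.42 ± 0.29). Ighg3 measured 17.0, 13.0 and 20.4 CPM in cKO and 64.5, 21.2 and 24.0 CPM in WT (-0.99 ± 0.30, or -0.50 without WT library 1). Ighe, the IgE constant gene, measured 0.513, 0 and 0.217 CPM in cKO and 3.44, 1.17 and 0.496 CPM in WT (-2.71, or -1.71 without WT library 1). The gene copies for the IgG subclasses are close paralogs, so reads may be split between them. Over the 13 constant genes, 12 lay below 0 and 5 were lower at an unadjusted p under 0.05 (1.28% of all genes), with a median of -0.20. Among 202 tested V segments, 147 lay below 0 and 5 were lower at that p, with a median of -0.07. The constant genes of resting B cells differed little, with log2 fold changes of -0.16 for Ighm and 0.02 for Ighd, the IgM and IgD genes.

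The germinal center list had the same direction. All 20 genes were tested, 16 lay below 0, 8 were lower at an unadjusted p under 0.05 (1.28% of all genes) and 0 were higher, with a median of -0.28 and medians of -0.61, -0.21 and -0.06 in numbers 1, 2 and 3. S1pr2, the receptor that holds B cells in the germinal center, measured 1.13, 1.35 and 1.88 CPM in cKO and 6.84, 2.33 and 3.06 CPM in WT (-1.52 ± 0.34, edgeR adjusted p = 0.643). The cKO libraries lay below all WT libraries. Gcsam, a germinal center signaling adaptor, measured 0.0342, 0.210 and 0.326 CPM in cKO and 5.32, 0.562 and 0.786 CPM in WT, and Nuggc, a nuclear GTPase, measured 0.513, 1.56 and 1.05 CPM in cKO and 8.72, 1.77 and 2.19 CPM in WT. In both genes WT library 1 was several times the others. The levels of S1pr2, Gcsam and Nuggc are small beside germinal center cells. Rgs13 and Mki67, also on the list, had larger shares of the WT GCB mean. Rgs13 stood at 2.87%, 2.77% and 1.11% in cKO and 5.37%, 3.59% and 1.97% in WT. Mki67 stood at 6.21%, 1.55% and 4.47% in cKO and 8.71%, 2.5% and 3.61% in WT. S1pr2 in the FoB libraries was 0.279%, 0.333% and 0.465% of the WT GCB mean in cKO and 1.69%, 0.577% and 0.757% in WT, and Gcsam was 0.00647%, 0.0398% and 0.0616% in cKO and 1.01%, 0.106% and 0.149% in WT. Without WT library 1 the list median was -0.05, with 12 of 20 genes below 0, 5 lower and 1 higher at an unadjusted p under 0.05, and the log2 fold change was -0.81 for S1pr2, -1.80 for Gcsam (against -3.55 with it) and -0.92 for Nuggc (against -2.04). The same library had the highest summed G2/M level. The 10 neutrophil markers summed to 4.58, 9.50 and 3.58 CPM in cKO and 19.3, 17.5 and 2.07 CPM in WT, with Ly6g at 0 in number 3 of both genotypes and S100a8 at 0.991, 1.85 and 0.253 CPM in cKO and 5.00, 3.85 and 0.248 CPM in WT (-1.53, or -0.69 without WT library 1). The part of admixed cells in the result was not tested.

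Cell cycle genes were lower in cKO mainly in number 1. Of 24 G2/M genes 24 lay below 0, with a median of -0.21, but the medians were -0.60, -0.10 and 0.21 in numbers 1, 2 and 3, and 0 genes reached an unadjusted p under 0.05. The 20 S phase genes had 18 below 0, a median of -0.14 and medians of -0.35, -0.03 and 0.03. Cenpe and Ttk, which serve chromosome alignment and the spindle checkpoint, gave -0.44 and -0.48, and the replication helicase genes Mcm3 and Mcm6 gave -0.21 and -0.22. Without WT library 1, 1 of 24 G2/M genes and 2 of 20 S phase genes lay below 0, with medians of 0.25 and 0.08, so the direction of both lists turned with that library.

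Immediate early genes, which are switched on within minutes of a stimulus and encode AP-1, EGR and KLF factors and MAP kinase phosphatases, were mostly lower in cKO FoB. Of 25 genes, 24 were tested (Ier3 did not pass the filter), and 22 lay below 0 against 50.4% of all genes. In all 3 numbers 14 were lower in cKO, against 10.9% of all genes. At an unadjusted p under 0.05, 4 were lower, against 1.28% of all genes. The median was -0.28, with medians of -0.29, -0.46 and -0.13 in numbers 1, 2 and 3. No member had groups that did not overlap. The median in GCB was -0.03. Fos measured 334, 224 and 237 CPM in cKO and 545, 459 and 259 CPM in WT (-0.63 ± 0.34, 95% interval -1.36 to 0.10). Fosb, a relative of Fos in the same family, measured 193, 14.1 and 99.3 CPM in cKO and 348, 37.7 and 113 CPM in WT (-0.74 ± 0.36). Dusp1, a phosphatase that turns off MAP kinases, measured 116, 60.6 and 64.6 CPM in cKO and 189, 118 and 78.2 CPM in WT (-0.66 ± 0.29). In each of these 3 genes the groups overlapped, and the cKO library was the lower one of every number. Klf6 gave -0.35 ± 0.12, Egr1 -0.34 ± 0.15 and Atf3 -1.06 ± 0.37. Without WT library 2 the median was -0.13, with 17 of 24 genes below 0 and 2 lower and 2 higher at an unadjusted p under 0.05, and the log2 fold changes were -0.16 for Fos, -0.48 for Fosb, -0.29 for Dusp1 and -0.22 for Egr1.

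The 250 bases before the start of Fos, Fosb, Dusp1 and Rgs2 are shown because all 4 genes, picked with their values known, were lower in cKO in every number, and because the core motif of the cAMP response element, TGACG (read on either strand, as TGACG or CGTCA), occurs in each. Capitals mark the matches, and the pair in Dusp1 overlaps into TGACGTCA. The sequences are from RefSeq on GRCm38.p6, 5′ to 3′ on the gene's strand, at chr12:85473640-85473889 (plus, Fos), chr7:19310046-19310295 (minus, Fosb), chr17:26508473-26508722 (minus, Dusp1) and chr1:144004150-144004399 (minus, Rgs2).
Fos: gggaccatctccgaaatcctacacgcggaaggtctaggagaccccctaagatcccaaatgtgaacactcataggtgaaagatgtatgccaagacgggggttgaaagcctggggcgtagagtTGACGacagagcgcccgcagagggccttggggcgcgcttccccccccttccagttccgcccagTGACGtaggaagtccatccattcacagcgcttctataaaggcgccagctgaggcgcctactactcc
Fosb: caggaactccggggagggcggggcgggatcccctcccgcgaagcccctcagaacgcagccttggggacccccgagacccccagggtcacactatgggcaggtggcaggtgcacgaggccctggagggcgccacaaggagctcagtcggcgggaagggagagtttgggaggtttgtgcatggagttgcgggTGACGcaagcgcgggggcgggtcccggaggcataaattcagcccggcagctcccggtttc
Dusp1: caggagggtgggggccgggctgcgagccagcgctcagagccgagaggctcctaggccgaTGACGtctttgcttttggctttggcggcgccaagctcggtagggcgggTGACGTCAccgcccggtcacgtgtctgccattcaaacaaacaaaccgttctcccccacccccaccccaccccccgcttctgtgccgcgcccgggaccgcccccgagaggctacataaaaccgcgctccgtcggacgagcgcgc
Rgs2: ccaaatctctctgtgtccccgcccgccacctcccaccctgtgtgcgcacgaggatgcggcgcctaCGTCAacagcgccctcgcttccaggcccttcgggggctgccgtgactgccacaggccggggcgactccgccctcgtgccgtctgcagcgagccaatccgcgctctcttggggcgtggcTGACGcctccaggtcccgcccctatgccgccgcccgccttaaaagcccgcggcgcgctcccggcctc
The motif was found 2 times in Fos (129 and 66 bases before the start), 1 time in Fosb (60 bases), 3 times in Dusp1 (191, 143 and 140 bases) and 2 times in Rgs2 (185 and 67 bases). Of all 32851 promoters in the table, 17.8% hold at least 1, and of the 19 immediate early genes with an entry, 11 do. The CArG box of SRF was found in 0 of the 4, in 2 of the 19 and in 1.47% of all promoters. Only these 250 bases were searched, so a site further upstream would be missed, and its absence here says nothing about one. A match describes letters only.

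Heat shock genes were lower as well, with the largest differences in 1 pair of copies. Of 11 tested genes 11 lay below 0, against 50.4% of all genes, with a median of -0.20. At an unadjusted p under 0.05, 2 were lower, against 1.28% of all genes. Hsp90ab1, Hsph1 and Hspa8 were lower in cKO in all 3 numbers, and the other tested members were not. Hsp90ab1 measured 2415, 2769 and 2452 CPM in cKO and 2792, 3170 and 2780 CPM in WT, without overlap (-0.20 ± 0.09). Hspa1a, an inducible HSP70 chaperone gene, measured 15.6, 3.78 and 0.362 CPM in cKO and 29.8, 40.6 and 0.207 CPM in WT (-1.98 ± 0.52), and Hspa1b measured 28.7, 5.68 and 1.34 CPM in cKO and 40.2, 59.9 and 0.703 CPM in WT (-1.61 ± 0.61). Both were lower in cKO in numbers 1 and 2 and not in number 3, and without WT library 2 Hspa1a gave -0.81 and Hspa1b -0.20. The copies are nearly identical in sequence and reads between them are uncertain.

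p53 targets were mixed but included genes that were higher in cKO. Of 20 genes 18 were tested and 13 lay above 0, where 50.4% of all genes lay below it, with a median of 0.05. At an unadjusted p under 0.05, 4 were higher and 2 lower, against 0.905% and 1.28% of all genes. Cdkn1a, which encodes the cell cycle inhibitor p21, measured 1.88, 1.56 and 1.81 CPM in cKO and 1.15, 0.994 and 0.744 CPM in WT. Its groups did not overlap (0.85 ± 0.25). Phlda3, an inhibitor of AKT, measured 0.581, 0.631 and 0.723 CPM in cKO and 0.347, 0.259 and 0.496 CPM in WT (0.80 ± 0.33). Its reads were only 17, 15 and 20 in cKO and 10, 6 and 12 in WT. Zmat3 measured 11.99, 14.4 and 13.1 CPM in cKO and 11.2, 10.8 and 10.0 CPM in WT (0.30 ± 0.11), and Bbc3, which encodes the pro-apoptotic PUMA, measured 1.57, 1.304 and 2.82 CPM in cKO and 0.869, 0.994 and 1.36 CPM in WT (0.78 ± 0.31). Against these, Fas and Plk2 were lower in cKO (-0.46 for Plk2, or -0.21 without WT library 1), and Mdm2 and Ccng1 differed by 0.08 and 0.04. In FoB the levels of Cdkn1a, Phlda3 and Bbc3 were low, and the groups of Bbc3 overlapped. All 4 higher genes passed the test in GCB, where 10 of the list were called higher (1.93% of all genes) and the median was 0.44. Cdkn1a had a log2 fold change of 2.69 there, and its effect in FoB was lower by 1.84 on the log2 scale than in GCB (adjusted p = 0.0446).

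**Figure D2:**
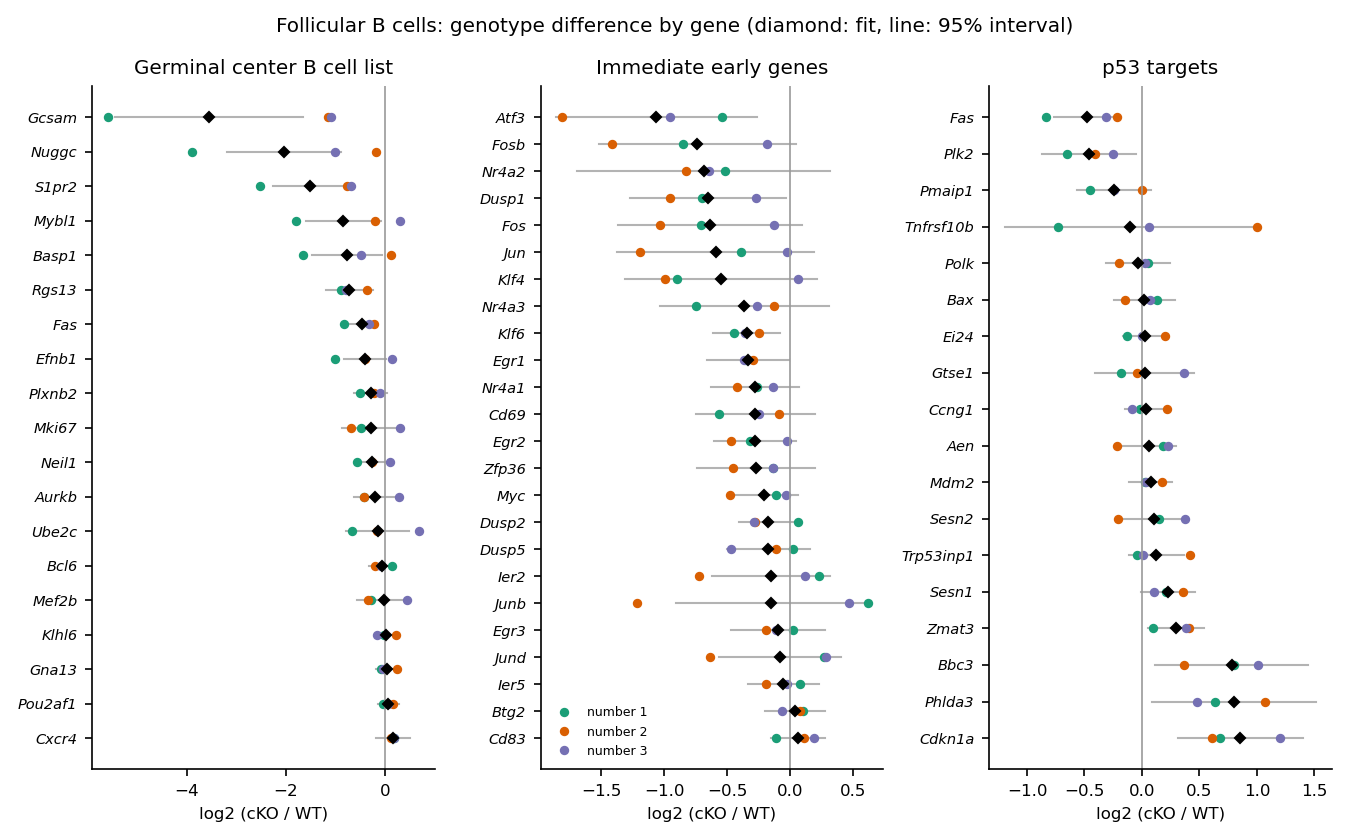
Genotype difference of each member of 3 gene lists in follicular B cells, as log2 of cKO over WT. Diamonds are fitted values with 95% intervals and points are the 3 replicate numbers, with 19 of the 20 germinal center genes drawn. In the germinal center list number 1 reaches furthest below 0, immediate early genes lie mostly below 0 in all numbers, and Cdkn1a, Phlda3 and Bbc3 lie above 0 in each number.

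Genes that mark the resting follicular B cell differed little. Of 18 tested, 5 lay below 0, 7 were higher in cKO in all 3 numbers (10.5% of all genes) and 0 were at an unadjusted p under 0.05, with a median of 0.03. Bcl2, which protects from apoptosis, measured 130, 145 and 128 CPM in cKO and 125, 121 and 111 CPM in WT, without overlap, at a locus tagged as overlapping another gene (0.18, 95% interval -0.12 to 0.48). Klf2, a quiescence and trafficking factor, gave -0.23 (95% interval -0.67 to 0.20). B cell receptor signaling genes had 18 of 22 below 0 with a median of -0.04, and Bcl10 was the 1 member at an unadjusted p under 0.05. Plcg2 gave -0.12.

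Cholesterol synthesis genes had small differences of either sign. Of 22, 17 lay below 0 and 0 were at an unadjusted p under 0.05, with a median of -0.04 and medians of -0.14, 0.09 and -0.10 in numbers 1, 2 and 3. Nsdhl and Hmgcs1, which had the smallest p, gave -0.15 ± 0.10 and -0.17 ± 0.11. In GCB the same list had a median of -0.33, with 7 genes called lower (0.212% of all genes). Scd2, which desaturates fatty acids, gave -0.25 ± 0.11 (-0.12 without WT library 1), and Lrp8, a lipoprotein receptor gene, 0.53 ± 0.23. Interferon-stimulated genes leaned the other way, with 25 of 30 above 0, a median of 0.10 and medians of -0.05, 0.12 and 0.14. Ifit1, an antiviral RNA-binding protein gene, measured 8.68, 12.2 and 9.15 CPM in cKO and 7.09, 6.83 and 6.49 CPM in WT, without overlap (0.54 ± 0.20), and was the 1 member at an unadjusted p under 0.05.

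Markers of other cells were low, and some differed between genotypes within a number. T cell markers summed to 75.0, 99.5 and 84.7 CPM in cKO and 77.4, 102 and 77.8 CPM in WT. Macrophage markers summed to 24.6, 38.1 and 31.3 CPM in cKO and 39.4, 36.1 and 28.2 CPM in WT, with medians of -0.53, 0.19 and 0.30 in numbers 1, 2 and 3. Dendritic cell markers summed to 40.5, 58.2 and 53.5 CPM in cKO and 44.0, 53.4 and 45.8 CPM in WT, with medians of -0.43, 0.64 and 0.64. Erythroid markers summed to 1.95, 6.27 and 3.18 CPM in cKO and 7.89, 4.50 and 2.60 CPM in WT. Their part in the differences was not tested. Marginal zone and B-1 cell genes had 8 of 15 below 0 and a median of -0.12. Over the 38 lists with at least 5 tested genes, 0 held a gene past the test, 13 had a median above 0 and 25 below, from -1.01 for neutrophil markers to 0.36 for dendritic cell markers.

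**Figure D3:**
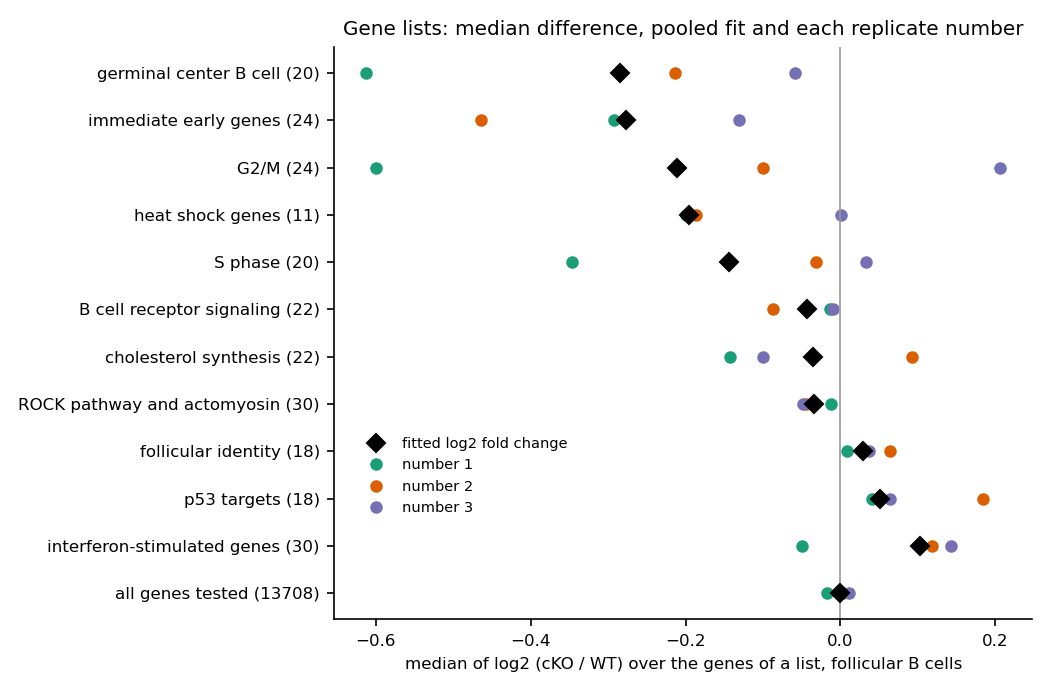
Median log2 of cKO over WT for 11 gene lists and for all tested genes in follicular B cells. Diamonds are the fitted values, points the 3 replicate numbers, and parentheses the number of tested genes. The germinal center and G2/M lists spread most between numbers, while the immediate early list is below 0 in each number and all genes lie at -0.0012.

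Genes that changed in cKO GCB had, as a group, small differences in FoB. Of the 264 genes called higher in cKO GCB (1.93% of 13708), 145 had the same sign in FoB, where 50.4% of all genes lay below 0. At an unadjusted p under 0.05, 14 were higher in FoB and 4 lower, against 0.905% and 1.28% of all genes. The median log2 fold change was 0.01 in FoB against 0.99 in GCB. Of the 29 called lower in cKO GCB (0.212%), 26 had the same sign and 3 were lower at that p. The medians were -0.09 in FoB and -0.49 in GCB. The GCB values chose these genes and are a description. The FoB libraries were part of the same fit, so the FoB values are not independent of that choice. The edgeR test of the difference called 36 genes (0.263%), in each of which the FoB effect was lower than the GCB effect. Without the replicate block the same test called 1. The count was 6, 8 and 9 without cKO FoB library 1, 2 or 3, then 23, 12 and 9 without WT FoB library 1, 2 or 3, and 5, 2 and 25 without all libraries of number 1, 2 or 3.

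**Figure D4:**
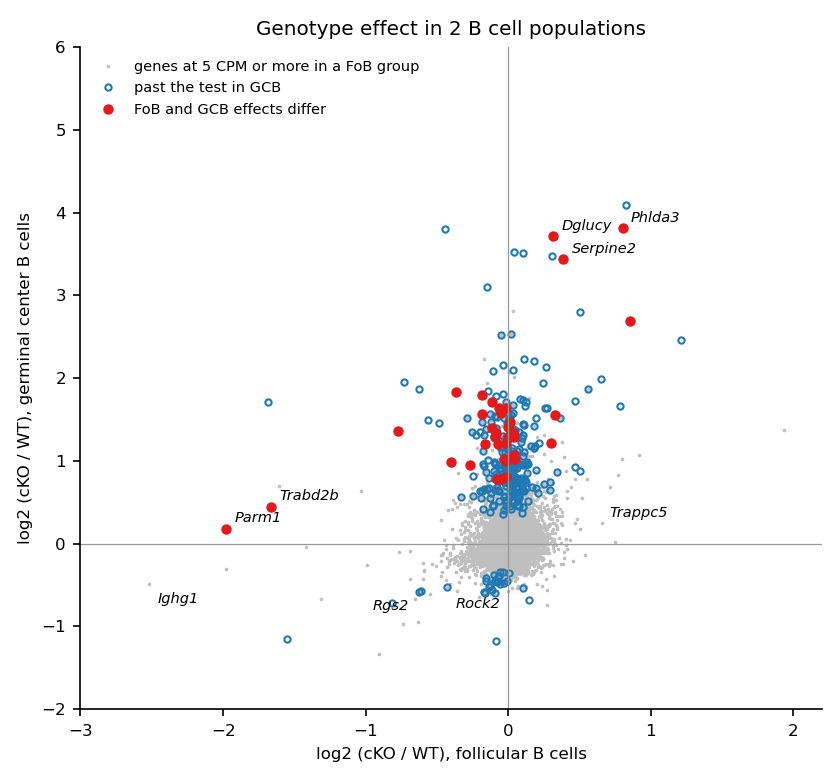
Genotype effect in follicular B cells (horizontal) and germinal center B cells (vertical), each as log2 of cKO over WT. Grey points are genes with at least 5 CPM in a FoB group, open circles are genes past the test in GCB, and filled points are genes whose effects differ between the populations, of which all but 1 called gene lie inside the plotted range. Most circles stand in a column near 0 on the horizontal axis, and Rgs2 and Rock2 lie below 0 on both axes.

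The gene with the smallest p for that difference was Dglucy, the D-glutamate cyclase gene. In FoB it measured 22.1, 19.8 and 19.3 CPM in cKO and 19.2, 16.2 and 14.1 CPM in WT, groups that do not overlap (0.32 ± 0.11), against a log2 fold change of 3.71 in GCB. Il9r, the interleukin 9 receptor gene, measured 152, 95.7 and 115 CPM in cKO and 144, 77.4 and 76.2 CPM in WT (0.33 ± 0.11), against 1.56 in GCB. Pdlim1, a cytoskeletal adaptor gene, lay on the other side of 0 in FoB, at 29.9, 36.3 and 32.9 CPM in cKO and 36.0, 42.2 and 41.1 CPM in WT (-0.27 ± 0.10), against 0.95 in GCB. Gpr183, the receptor that guides B cells to the outer follicle, measured 96.0, 133 and 107 CPM in cKO and 95.8, 128 and 104 CPM in WT, groups that overlap (0.03 ± 0.13, 95% interval -0.24 to 0.31), against 1.34 in GCB. Parm1 reached the difference from the FoB side. It measured 0.273, 0.757 and 0.362 CPM in cKO and 2.36, 1.34 and 1.53 CPM in WT, without overlap (-1.98 ± 0.32, edgeR adjusted p = 0.151), against 0.18 in GCB. Trabd2b showed the same pattern, with 0.444, 0.126 and 0.289 CPM in cKO and 1.35, 0.562 and 0.868 CPM in WT (-1.66 ± 0.33), against 0.45 in GCB. Both are low in FoB, Parm1 lies in a locus the authors tag as overlapping, and both were picked from the called genes after their values were seen.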

How the data were processed

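Polyadenylated RNA of sorted cells was sequenced from Nextera libraries on a HiSeq2500, per the labels. The authors deposited raw read counts per Ensembl gene, the same counts for 10518 genes they kept, log2 CPM (not used here), and a table of log2 fold changes and p-values of cKO over WT. The submitters' processing notes name mm10, Bowtie2, MACS2 and edgeR. For the read counter, strand use and filters the labels give no information. The authors' table also holds gene widths (other deposited values), which were not used.

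The counts were tested in R 4.3.3 with edgeR 4.0.16 (quasi-likelihood F test, TMM, filterByExpr, Benjamini-Hochberg, threshold 0.05) on 12 libraries in 4 groups. The replicate number was a block, as planned for this comparison. Same-numbered samples deviated together (18 same-numbered pairs at 0.478 to 0.753, 36 others at -0.654 to 0.0952, deviations across genes). With the block 6 residual degrees of freedom remained, at a biological coefficient of variation of 0.114. Differences per number use log2 CPM with a prior count of 2. DESeq2 1.42.0 served as an alternative. The deposited columns held 0 identical pairs. Symbols were matched for 25607 gene IDs, and coordinates and promoters come from RefSeq on GRCm38.p6. The scripts were tested on simulated data. Intervals and floors on reads cover counting error only.

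Named genes were Rock2, Rock1, those past the test with at least 5 CPM and the same sign in all 3 numbers or, with none, the 10 smallest p in each direction, 2 from each list, and 10 each for GCB and for the difference. A gene added outside the rule is said to be so. Members and lists were chosen with earlier results of these data known, so their agreement is not independent support. The 4 ATAC-seq samples were not analysed here, and 1 gene of the germinal center list is not reported here by itself.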

Additional observations from a re-analysis of the deposited data

Results flagged for a closer look

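The genotype effect in FoB differed from that in GCB by a test of the difference itself for 15 named genes, each lower in FoB. On the log2 scale, FoB minus GCB, the differences were -3.39 for Dglucy, -3.05 for Serpine2, -3.01 for Phlda3, -2.16 for Parm1, -2.11 for Trabd2b, -1.84 for Cdkn1a, -1.75 for Csf1, -1.42 for Igkv3-5, -1.42 for Ckap4, -1.31 for Gpr183, -1.23 for Il9r, -1.21 for Pdlim1, -1.03 for Ccng1, -0.98 for Glipr1 and -0.92 for Zmat3. In FoB itself Serpine2 gave 0.39, Csf1 -0.19 and Glipr1 0.05. Without the replicate block, 1 of the 15 (Dglucy) was past the test. Without 1 FoB library, 6 to 11 of the 15 were past it, and without all libraries of a number 2 or 5, Dglucy being past it in each of these 9 fits.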

How the results depend on the processing

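DESeq2 called 7 genes in FoB and edgeR without a filter on low counts 57, against 0 in the fit reported, and leaving out a library or a whole replicate number gave 0 to 2. Taking out WT library 1 or 3, or number 1, called Ighg1, and taking out WT library 2 called Parm1 and Trappc5. The fit with no replicate block on all 12 libraries also called 0 in FoB. For GCB it called 14 and the fit without a filter 757, against 293, and for the difference of the genotype effects it called 1, RLE factors 22, upper quartile factors 20, a mean of at least 100 counts 10, the authors' filtered genes 12 and no filter 361, against 36. Leaving out a library or a number gave 87 to 317 for GCB and 2 to 25 for the difference, in fits that were, like all GCB alternatives, added after the data were seen.

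Over all 19 alternative settings, values that turned sign were Ccng1 (-0.043 to 0.10), Glipr1 (-0.017 to 0.14), Fcer2a (-0.064 to 0.19), Klf2 (-0.44 to 0.012), Mcm6 (-0.36 to 0.017), Ttk (-0.74 to 0.051), Ighd (-0.20 to 0.23) and Cr2 (-0.011 to 0.16), as log2 fold changes from lowest to highest. List medians over the settings that left out libraries ranged from -0.0443 to 0.10 for follicular identity, -0.0962 to 0.0177 for the ROCK pathway, -0.0723 to 0.0044 for B cell receptor signaling, -0.20 to -0.0832 for heat shock genes, -0.27 to 0.0777 for S phase and -0.42 to 0.25 for G2/M. The cause was not tested. Depth was 23349512 counts or more per library, and 3 libraries a group limit the precision.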

Other observations

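Further single genes also stood at an unadjusted p under 0.05 in FoB, none past the edgeR test (adjusted p of 1 for each). Cxcr3, a chemokine receptor gene, measured 1.78, 3.70 and 2.68 CPM in cKO and 5.07, 4.45 and 4.30 CPM in WT, without overlap (-0.81 ± 0.26, against 0.85 in GCB). Hsp90b1, a chaperone of the endoplasmic reticulum at a locus tagged as overlapping, measured 532, 680 and 448 CPM in cKO and 695, 788 and 580 CPM in WT, lower in cKO in each number (-0.33 ± 0.12, against 0.56 in GCB, where it passed the test with an adjusted p of 0.0317). Ddit4, a stress-induced inhibitor of mTOR signaling, measured 26.9, 29.1 and 35.5 CPM in cKO and 16.5, 26.1 and 30.4 CPM in WT, higher in cKO in each number (0.34 ± 0.15, against 0.86 in GCB). Flt3, a cytokine receptor kinase gene, gave -0.41 ± 0.16. It is also on the list of dendritic cell markers, and it measured 60.9 to 70.1 CPM in the GCB libraries. Sox5, a transcription factor gene at an overlapping locus, gave -0.53 ± 0.17. Without WT library 1 the values were 0.15 for Ddit4, -0.18 for Flt3 and -0.35 for Sox5. Among whole lists, plasma cell genes had a median of -0.04 in FoB against 0.49 in GCB, and positioning receptors 0.04 against 0.76.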
